A study of Mus musculus with 6 samples.

Results

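A set of 9 imprinted growth regulators was followed in mammary fibroblasts sorted by their level of CD34, and its genes did not move as a block. *Grb10*, *Meg3*, *Rian*, *Plagl1* and *Ndn* were higher in CD34hi fibroblasts, *Dlk1*, *Mest* and *Peg3* were higher in CD34lo fibroblasts, and *H19* was lower in CD34hi fibroblasts without passing the test. The 9 genes were taken by name from the 27179 genes of the count table, of which 25275 had a symbol. All 9 were in the table, and all 9 were among the 15219 genes that passed the filter on low counts. The rule names imprinted genes and uses no measured value, but the set was put together with earlier results of these data known.

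The cells came from the mammary glands of pubertal FVB/N mice, 6 weeks of age, and the labels name no transgene or treatment in either population. Fibroblasts were sorted as lineage-negative, CD24-negative, Pdgfrα-positive cells and divided into a CD34hi and a CD34lo population. There were 3 pools of 2 mice, and each pool gave 1 library of either population, which makes 3 CD34hi and 3 CD34lo libraries. Pooled mice limit what can be said of single animals, and bulk libraries cannot tell fewer cells of a type from less RNA per cell.

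Imprinted genes are read mainly from one parental chromosome, because DNA methylation laid down in the egg or the sperm marks an imprinting control region that governs a cluster of neighbours. Many of them set the growth of the fetus and placenta, with paternally read genes often promoting growth and maternally read genes often restraining it, and many fall silent in most tissues after birth. Among the 9, *Dlk1*, *Peg3*, *Plagl1*, *Mest* and *Ndn* are known as paternally read, and *H19*, *Meg3*, *Rian* and *Grb10* as maternally read in most tissues. The counts sum both alleles, and in an inbred strain the alleles cannot be told apart, so that all values below are total levels of a gene and none of them measures imprinting itself.

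Depth ran from 28764779 to 52402410 counts per library. Levels are given as CPM (counts scaled to one common library total, after TMM normalization), 3 counts were worth 0.0553 to 0.108 CPM, and this floor covers counting error only. Log2 fold changes are CD34hi against CD34lo, a negative value meaning higher in CD34lo, and a gene was called when its p-value in the quasi-likelihood test of edgeR, adjusted over all tested genes after Benjamini and Hochberg, was under 0.05. SE is the standard error of a log2 fold change. The third CD34hi library stood apart, each library being set against the mean log2 CPM of the other CD34hi libraries. In it, 533 genes (3.5% of those tested) were at least 2-fold above that mean, against 212 (1.39%) and 161 (1.06%) in the first and the second. Fewer genes were at least 2-fold below that mean in it (257) than in the first (312) or the second (317). For a single gene, the smallest p-value that an exact permutation test of these 6 libraries allows is 0.1, and the tests given are therefore those of the fit across all genes. The summed level of the 5 fibroblast markers *Dcn*, *Lum*, *Pdgfra*, *Col1a2* and *Igfbp5* was 28400 to 31900 CPM in CD34hi and 31500 to 36400 CPM in CD34lo libraries, and all 5 were present in both populations. Of them, *Igfbp5* was higher in CD34hi (8404 against 767 CPM in the mean), *Lum*, *Pdgfra* and *Col1a2* were higher in CD34lo, and *Dcn* was not called.

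The sequences just before the start of 4 of the genes show how differently the members of this class are built. *Dlk1* and *Meg3* are shown because they lie in one imprinted domain and differed in opposite directions, *Rian* because it moved with *Meg3*, and *Grb10* because its level rose the most among the 9. Each run is the 250 bases before a start annotated by RefSeq (GRCm38.p6), written 5′ to 3′ on the gene's own strand, with CG dinucleotides in capitals.
Dlk1, chr12:109452573-109452822, plus strand: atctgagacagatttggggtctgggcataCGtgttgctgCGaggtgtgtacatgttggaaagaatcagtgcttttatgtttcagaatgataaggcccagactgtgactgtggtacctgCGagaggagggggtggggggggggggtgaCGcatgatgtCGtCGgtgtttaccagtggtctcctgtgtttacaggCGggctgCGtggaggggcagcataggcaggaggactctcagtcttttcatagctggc
Meg3, chr12:109540746-109540995, plus strand: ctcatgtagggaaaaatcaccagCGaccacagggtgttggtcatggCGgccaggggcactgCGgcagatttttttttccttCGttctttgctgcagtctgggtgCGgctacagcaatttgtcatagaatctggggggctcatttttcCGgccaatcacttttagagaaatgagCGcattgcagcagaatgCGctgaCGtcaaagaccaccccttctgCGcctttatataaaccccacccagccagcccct
Rian, chr12:109603695-109603944, plus strand: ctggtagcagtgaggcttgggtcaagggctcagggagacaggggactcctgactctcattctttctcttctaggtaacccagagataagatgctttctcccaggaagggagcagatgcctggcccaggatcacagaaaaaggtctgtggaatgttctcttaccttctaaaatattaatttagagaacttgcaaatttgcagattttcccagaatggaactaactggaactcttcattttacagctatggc
Grb10, chr11:12037421-12037670, minus strand: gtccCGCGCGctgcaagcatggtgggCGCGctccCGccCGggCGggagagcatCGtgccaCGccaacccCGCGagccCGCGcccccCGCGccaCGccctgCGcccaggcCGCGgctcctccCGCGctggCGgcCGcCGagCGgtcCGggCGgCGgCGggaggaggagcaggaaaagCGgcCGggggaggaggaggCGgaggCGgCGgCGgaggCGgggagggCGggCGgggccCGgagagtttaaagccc

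The window of *Grb10*, a gene with 2 annotated starts, held the densest run of CG dinucleotides of the set. Over 300 bases around each start (250 before and 50 after), there were 45 CG dinucleotides at this *Grb10* start, more than in 98.2% of 32851 RefSeq windows, and 9 at its other start. *Plagl1* had 26 (percentile 83.8), *Peg3* 13, the *Meg3* start shown 13, *Ndn* 11, *Dlk1* 9 and *Rian* 0, where the median window had 7. The 3 *Mest* windows had 8, 17 and 17, and the other *Meg3* window had 1. Searched on both strands of the same windows, GGGCGG was present in 6 of the 12 windows of 8 members (35.7% of all windows) and TATAAA in 1, at *Meg3* (13.6% of all windows). The 6 include all 3 *Mest* windows, and the *Mest* windows printed from 30737800 and 30737803 cover nearly the same bases. These windows are therefore not independent of each other. No window was given for *H19*. Among the genes that rose, the number thus ran from 0 to 45, and among those that fell from 8 to 17.

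Of the 9 genes, 4 also span the precursors of microRNAs, small RNAs that silence targets through the seed at bases 2 to 8. The mature forms of a single precursor at each of *H19*, *Mest*, *Meg3* and *Rian* are shown with the seed in capitals, to set apart what these data do and do not measure at the 4 genes. Those of miR-1906 at *Meg3* and of miR-341 and miR-1188 at *Rian* are not shown.
miR-675-5p (H19): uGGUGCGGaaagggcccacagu
miR-675-3p (H19): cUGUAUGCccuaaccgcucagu
miR-335-5p (Mest): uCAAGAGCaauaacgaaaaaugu
miR-335-3p (Mest): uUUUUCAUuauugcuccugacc
miR-770-5p (Meg3): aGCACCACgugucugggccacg
miR-770-3p (Meg3): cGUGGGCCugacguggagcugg
miR-370-5p (Rian): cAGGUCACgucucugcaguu
miR-370-3p (Rian): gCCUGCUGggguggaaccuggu
None of these seeds was shared with another of the 13 mature forms found within the members. These libraries were made from polyadenylated RNA and do not measure the mature forms, and the precursor genes had 0 counts over all 6 libraries for *Mir675* and *Mir770*, 4 for *Mir335* and 11 for *Mir370*. Of the precursors not shown, that of miR-1906 had 0 counts, that of miR-1188 had 24, and that of miR-341 was not listed. All of them lie within their hosts on the same strand, and how shared reads were assigned is not given. These counts therefore do not measure the precursors either. The host values below thus carry no information on the level of the microRNAs.

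The table called 35.6% of all tested genes, 16.9% as higher in CD34hi and 18.7% as higher in CD34lo. Of the 9 imprinted genes, 8 were called, 5 as higher in CD34hi and 3 as higher in CD34lo. This test took no account of the pairing by mouse pool, and with the pool as a replicate block *H19* was called as well. In 8 of the 9, the 3 CD34hi libraries and the 3 CD34lo libraries did not overlap, against 50.1% of all tested genes, and *Peg3* was the exception. All 9 kept one direction in the 3 pools, which for the 8 follows from the lack of overlap and adds information for *Peg3* alone. The median log2 fold change of the 9 was 0.49 against -0.0064 over all tested genes, and the median absolute log2 fold change was 0.79 against 0.40. Of the 5 paternally read genes, *Plagl1* and *Ndn* rose and *Dlk1*, *Peg3* and *Mest* fell in CD34hi, and of the 4 maternally read genes, *Grb10*, *Meg3* and *Rian* rose and *H19* was not called. The number called as higher in CD34hi was 3 without pool 1 and 3 without pool 2.

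**Figure D1:**
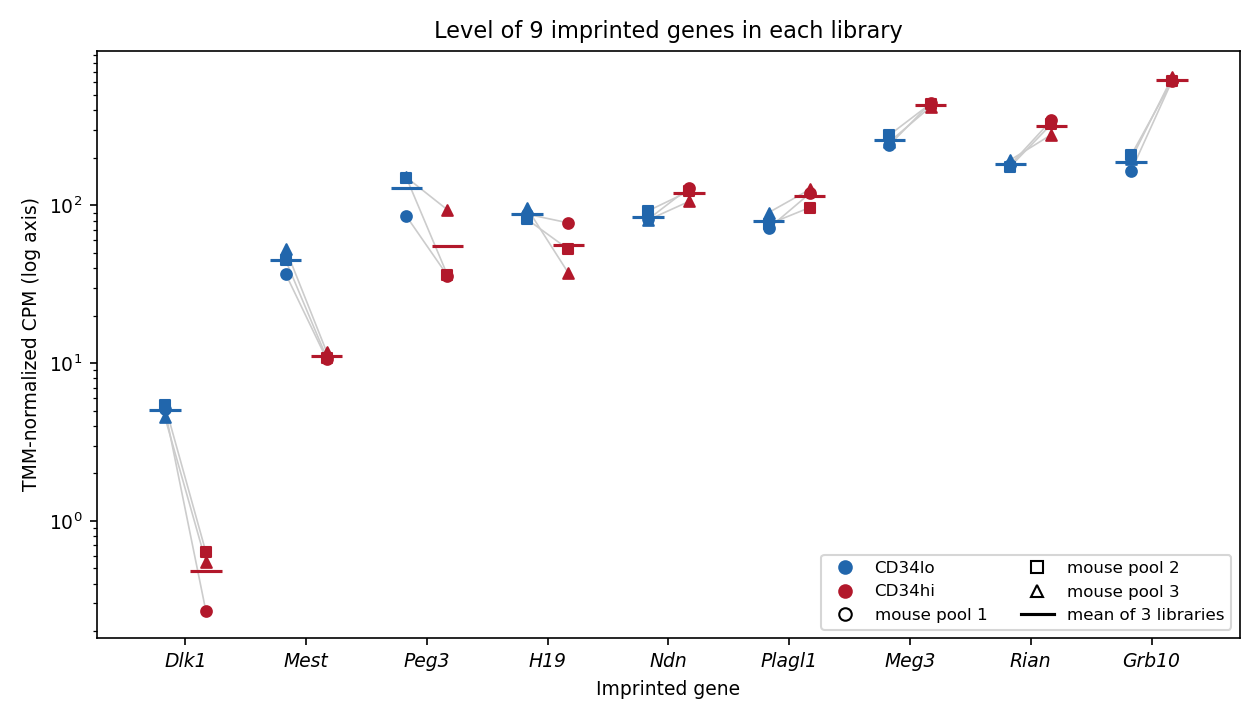
Level of each of the 9 imprinted genes in the 6 libraries, as TMM-scaled CPM on a log axis, with one point per library, its shape giving the mouse pool, a grey line joining libraries of one pool and a bar at the population mean. CD34hi and CD34lo points are separate for 8 genes, and for *Peg3* the third CD34hi library (93.6 CPM) lies above the lowest CD34lo library (85.3 CPM).

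Per kilobase of gene length, which lets genes be compared, *Grb10* was the most abundant of the 9 in CD34hi fibroblasts, with 119 to 125 CPM per kb over the 3 libraries. *Rian* followed with 78.2 to 96.4, *Ndn* with 64.0 to 78.0 and *Meg3* with 32.6 to 34.4 CPM per kb. *Plagl1* (18.4 to 24.0) and *H19* (14.3 to 29.6) overlapped and held no order, and *Peg3* (5.42 to 14.1), *Mest* (3.82 to 4.24) and *Dlk1* (0.0558 to 0.132) came last. In CD34lo fibroblasts the order was another one. *Rian* (49.1 to 54.0) and *Ndn* (48.8 to 55.8) overlapped at the top, *Grb10* (31.9 to 40.1) overlapped with *H19* (31.2 to 36.5), and *Meg3* (18.7 to 21.6), *Peg3* (12.9 to 22.7), *Mest* (13.3 to 19.1) and *Plagl1* (13.6 to 17.1) formed a run in which neighbours overlapped. *Dlk1* was again the lowest, with 0.949 to 1.14 CPM per kb. Set against all tested genes by level per length over the 6 libraries, *Grb10*, *Rian* and *Ndn* lay at percentiles 95.1, 94.4 and 93.8, *H19* at 86.5, *Meg3* at 86.1 and *Dlk1* at 16.7. These 3 genes were thus among the more abundant transcripts of the pubertal fibroblasts.

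*Grb10* encodes an adaptor protein that binds the insulin and IGF1 receptors and dampens their signal. Its gene (14783) lies on chromosome 11, 11930499 to 12037420, on the minus strand. The level was 616, 616 and 646 CPM in the CD34hi libraries of pools 1 to 3, and 165, 207 and 195 CPM in the CD34lo libraries. Every CD34hi library thus lay far above every CD34lo library, 626 ± 17.2 against 189 ± 21.9 CPM (SD, n = 3), 3.31-fold. The log2 fold change (SE 0.13) was 1.73 (adjusted p = 2.8e-05), and it stayed between 1.66 and 1.81 in 18 alternative analyses, all of which called it. *Ddc*, the next gene, encodes the decarboxylase that makes dopamine and serotonin, and in the heart it shares the *Grb10* imprint. It had 3.98, 3.28 and 4.04 CPM in CD34hi and 0.0184, 0.324 and 0.193 CPM in CD34lo libraries. The first CD34lo library lay below the floor, and the fitted log2 fold change (SE 0.59) was 4.59 (adjusted p = 0.000436). Of 9 listed partner genes of the members, 2 were called as higher in CD34hi, 2 as higher in CD34lo and 5 were not called, so that 44.4% were called beside 35.6% of all tested genes. The receptors that the Grb10 protein binds were among the last: the log2 fold change (SE 0.16) was 0.017 (adjusted p = 0.947) for *Insr* and 0.24 (SE 0.11, adjusted p = 0.117) for *Igf1r*.

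*Plagl1*, also known as *Zac1*, encodes a zinc finger transcription factor that arrests the cell cycle and acts on other imprinted genes. It lies on chromosome 10, 13090788 to 13131694 (gene 22634, plus strand), with no other gene of its own domain on the list. Its level was 119, 96.8 and 126 CPM in CD34hi and 71.5, 75.9 and 90.0 CPM in CD34lo libraries. The second CD34hi library, the lowest of its population, lay only just above the third CD34lo library. The rise was 1.44-fold, with a log2 fold change (SE 0.14) of 0.53 (adjusted p = 0.019). The call was lost without pool 1 (0.45, adjusted p = 0.139), pool 2 (0.60, 0.0528), the first CD34hi library (0.52, 0.0529), the first CD34lo library (0.48, 0.0557) or the second CD34lo library (0.49, 0.0545).

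*Ndn* encodes necdin, a MAGE family protein that binds E2F1 and slows cell division, and it is one of the genes lost in Prader-Willi syndrome. Its single-exon gene (17984) lies on chromosome 7, 62348277 to 62349928, on the plus strand. The CD34hi libraries held 129, 123 and 106 CPM, and the CD34lo libraries 81.3, 92.1 and 80.7 CPM. All 3 CD34hi libraries were higher, by 1.41-fold in the mean, with a log2 fold change (SE 0.12) of 0.49 (adjusted p = 0.0124). Without pool 1 the adjusted p was 0.11 (log2 fold change 0.43), without pool 2 it was 0.0682 (0.54), and without the second CD34hi library it was 0.0554 (0.48). *E2f1*, the cell cycle factor that necdin binds, was 21.6 ± 1.25 CPM in CD34hi and 12.7 ± 2.43 CPM in CD34lo fibroblasts (SD, n = 3), a log2 fold change (SE 0.16) of 0.76 (adjusted p = 0.00524). *E2f4* missed the threshold at 0.42 (SE 0.15, adjusted p = 0.061), and passed it with the pool as a replicate block (adjusted p = 0.0186).

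The other genes of the *Ndn* domain mostly had few counts or were not called. *Magel2* had 6 counts over all 6 libraries, *Mkrn3* had 46, and neither was tested. *Snrpn* had 1 count and *Snurf* had 0. These genes share 22655 bases on one strand, and how reads in shared bases were assigned is not given in the sources used here. *Peg12*, the mouse gene at the edge of the domain, was lower in CD34hi, with a log2 fold change (SE 0.29) of -0.88 (adjusted p = 0.0429). That call was lost in 9 of 18 alternative analyses: with the replicate block (adjusted p = 0.0518), with no filter (-0.85, 0.0597), with counts thinned to the smallest library (-0.62, 0.162), without pool 1 (-0.61, 0.338) or pool 2 (-0.87, 0.153), and without the first CD34hi (-0.76, 0.161), the second CD34hi (-0.79, 0.153), the first CD34lo (-0.70, 0.144) or the third CD34lo library (-0.93, 0.0632). *Ube3a*, a ubiquitin ligase read from both alleles outside neurons, had a log2 fold change (SE 0.13) of -0.081 (adjusted p = 0.663), which was 0.086 without pool 3. *Snhg14* (1.16, SE 0.65, adjusted p = 0.198) and *Atp10a* (0.18, SE 0.13, adjusted p = 0.346) were not called.

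The Dlk1-Dio3 domain on chromosome 12 held 3 of the 9 genes. Paternally read *Dlk1* fell in CD34hi, and maternally read *Meg3* and *Rian* rose. *Dlk1* encodes a membrane protein with EGF-like repeats whose shed form keeps preadipocytes from becoming fat cells. *Meg3* and *Rian* are long noncoding RNAs of the maternal chromosome, thought to belong to one long transcription unit, and *Rian* carries many snoRNAs in its introns. *Dlk1* (gene 13386, 109452823 to 109463336, plus strand) had 0.268, 0.635 and 0.551 CPM in CD34hi and 5.13, 5.47 and 4.57 CPM in CD34lo libraries. Its level was low throughout, at 12 to 25 counts per CD34hi library and 142 to 278 per CD34lo library, and all CD34lo libraries lay well above all CD34hi libraries. *Dlk1* fell in CD34hi, with a log2 fold change (SE 0.32) of -3.39 (adjusted p = 8.05e-05) and a mean 10.4-fold higher in CD34lo, and its absolute log2 fold change exceeded that of 96.6% of the tested genes.

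*Meg3* (gene 17263, 109540996 to 109571729, plus strand) went the other way, with 444, 440 and 421 CPM in CD34hi and 242, 279 and 253 CPM in CD34lo libraries. The CD34hi libraries lay close together and all above the CD34lo libraries, 1.69-fold in the mean, and the log2 fold change (SE 0.12) was 0.75 (adjusted p = 0.0013). *Rian* (gene 75745, 109603945 to 109661716, plus strand) had 346, 327 and 280 CPM in CD34hi and 180, 176 and 194 CPM in CD34lo libraries. It too was higher in all 3 CD34hi libraries, 1.73-fold, with a log2 fold change (SE 0.13) of 0.79 (adjusted p = 0.00136). The difference of *Meg3* and the difference of *Rian* were alike in size, and the level of *Rian* per length was 2.40 to 2.80 times that of *Meg3* in CD34hi libraries and 2.27 to 2.76 times in CD34lo libraries, ranges that overlapped. Short snoRNA and microRNA genes lie inside *Rian* on its strand, the most counted of them *AF357359* with 2904 counts against 60688 for *Rian* over all libraries. All 3 genes were called in each of the 18 alternative analyses.

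**Figure D2:**
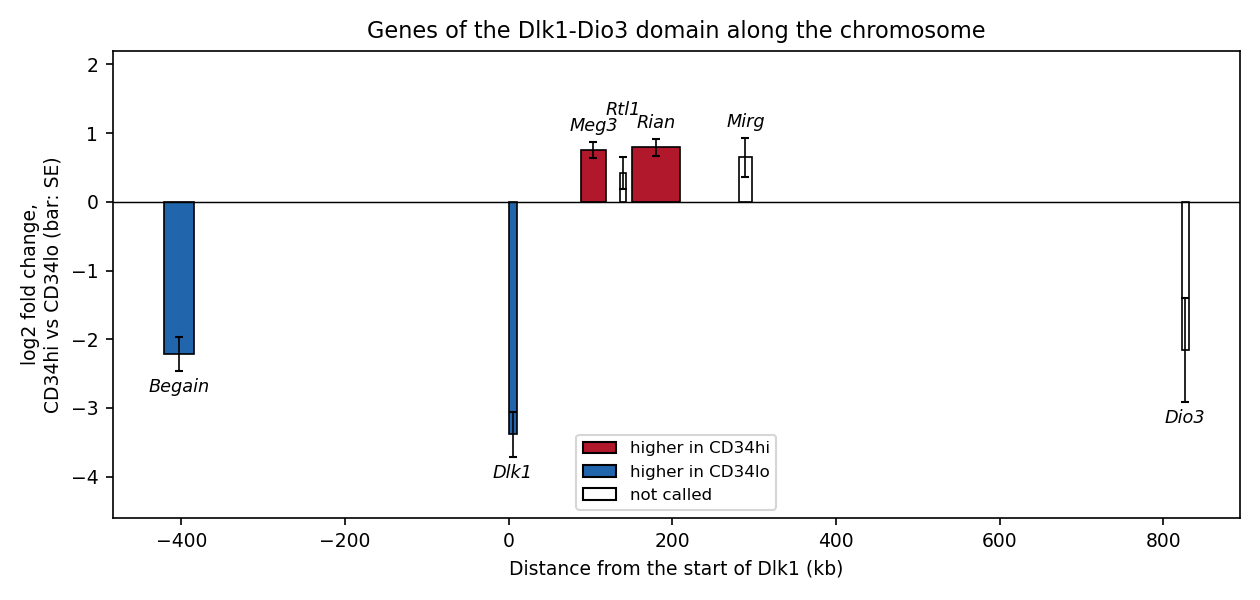
Log2 fold change (CD34hi vs CD34lo, with SE) of the 7 genes of the Dlk1-Dio3 domain against their distance in kb from the start of *Dlk1*; bar width is gene length, except that *Rtl1* and *Dio3* are shorter than drawn. *Begain* and *Dlk1* lie far below 0, *Meg3* and *Rian* lie above it, and *Rtl1*, *Mirg* and *Dio3* were not called.

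The domain held 4 other listed genes. *Begain*, which lies 385 to 421 kb before the start of *Dlk1*, had 6.52 ± 1.78 CPM in CD34hi and 30.2 ± 7.70 CPM in CD34lo fibroblasts (SD, n = 3) with no overlap, a log2 fold change (SE 0.25) of -2.21 (adjusted p = 0.000198). *Mirg*, the microRNA host gene downstream of *Rian*, had 8.74, 7.34 and 4.74 CPM in CD34hi and 4.87, 5.36 and 3.02 CPM in CD34lo libraries. Its populations overlapped, with pool 3 the lowest in both, and its log2 fold change of 0.65 (SE 0.29) had an adjusted p of 0.11, and of 0.0156 with the replicate block. It was also called without pool 3 (adjusted p = 0.045) and without the third CD34hi library (0.87, adjusted p = 0.0357). *Rtl1*, a retrotransposon-derived paternal gene, had a log2 fold change (SE 0.24) of 0.42 (adjusted p = 0.2). Its direction was that of the maternal *Meg3* and *Rian*. The populations did not overlap, with 2.08, 2.51 and 2.32 CPM in CD34hi and 1.64, 1.94 and 1.58 CPM in CD34lo libraries, but it was not called. Maternal transcripts run antisense to *Rtl1*, and the kit used does not mark strand, so that reads of either strand there cannot be told apart. *Dio3*, which encodes the enzyme that inactivates thyroid hormone, had 0.157, 0.497 and 0.0441 CPM in CD34hi and 0.646, 1.76 and 0.675 CPM in CD34lo libraries. The third CD34hi library lay below the floor, and the log2 fold change of -2.16 (SE 0.76) had an adjusted p of 0.0543, and of 0.00716 with the replicate block. Without the second CD34hi library it was -3.29 (adjusted p = 0.019), and without pool 2 it was -2.68 (adjusted p = 0.0346).

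Of the receptors linked to *Dlk1*, a noncanonical ligand of the Notch family, *Notch1* and *Notch3* were lower in CD34hi, by log2 fold changes of -3.45 (SE 0.19, adjusted p = 6.71e-06) and -3.28 (SE 0.31, adjusted p = 7.6e-05). *Notch2* was higher, at 302 ± 13.8 against 207 ± 5.90 CPM (SD, n = 3), a log2 fold change (SE 0.11) of 0.55 (adjusted p = 0.00479). Without pool 2 its adjusted p was 0.0607 (0.54). *Notch4* was not called (-1.14, SE 0.62, adjusted p = 0.191). The ligand, *Notch1* and *Notch3* were thus all higher in CD34lo, and *Notch2* was not. *Dlk1* is also read in muscle satellite cells and fat precursors, and the summed satellite cell markers (*Pax7*, *Myf5*, *Myod1*, *Chodl*) were 0 to 0.0671 CPM in CD34hi and 0.482 to 1.58 CPM in CD34lo libraries. *Chodl* made up most of the CD34lo mean, with 0.632 CPM, and none of these markers passed the filter on low counts. The summed adipocyte markers (*Adipoq*, *Plin1*, *Cidec*, *Lep*) were 0.179 to 0.69 and 0.482 to 1.81 CPM. This list was drawn up for adipocytes and not for their precursors. Of it, only *Plin1* passed the filter on low counts, and it was higher in CD34lo (0.122 against 0.853 CPM in the mean). The part of satellite cells, fat precursors or adipocytes in the *Dlk1* difference was not tested.

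*Mest* encodes a hydrolase-like protein of the endoplasmic reticulum, read in growing fat and mesenchyme. Its gene (17294) lies on chromosome 6, 30733506 to 30748466, on the plus strand. The level was 10.6, 10.9 and 11.8 CPM in CD34hi and 36.8, 44.9 and 53.0 CPM in CD34lo libraries. The CD34hi libraries were nearly equal, and the lowest CD34lo library was still more than 3 times higher than any of them. *Mest* fell in CD34hi, with a log2 fold change (SE 0.16) of -2.02 (adjusted p = 2.7e-05) and a mean 4.06-fold higher in CD34lo, and each of the 18 alternative analyses called it. Its neighbour *Copg2*, a maternally read coat protein gene on the other strand, went the opposite way, with 25.2, 27.3 and 28.4 CPM in CD34hi and 18.1, 21.7 and 19.1 CPM in CD34lo libraries, a log2 fold change (SE 0.12) of 0.46 (adjusted p = 0.0184). The overlap of *Mest* and *Copg2* is 56 bases, where strand is not known. The *Copg2* call was lost without the second CD34hi library (0.46, adjusted p = 0.0676) and without pool 1 (0.47, 0.087), pool 2 (0.53, 0.0707) or pool 3 (0.41, 0.0825). *Klf14*, an intronless maternally read transcription factor gene, had 0.0894, 0.0828 and 0.0882 CPM in CD34hi, close to the floor, and 0.609, 0.539 and 1.29 CPM in CD34lo libraries, a log2 fold change (SE 0.55) of -3.17 (adjusted p = 0.00216).

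*Peg3* encodes a large zinc finger protein, read from the paternal chromosome, that acts in cell death and in maternal behaviour. Its gene (18616) lies on chromosome 7, 6705960 to 6730419, on the minus strand. The level was 35.9, 36.2 and 93.6 CPM in CD34hi and 85.3, 150 and 150 CPM in CD34lo libraries. The third CD34hi library stood 1.38 log2 units above the mean of the other CD34hi libraries and above the first CD34lo library, so that the populations overlapped, although CD34hi was lower within each pool, by log2 differences of -1.25, -2.05 and -0.68. *Peg3* was called as lower in CD34hi, with a log2 fold change (SE 0.39) of -1.22 (adjusted p = 0.038), and with the replicate block the SE was 0.22 (log2 fold change -1.32, adjusted p = 0.00101). Without the third CD34hi library it was -1.83 (adjusted p = 0.00121), and without pool 3 it was -1.70 (adjusted p = 0.00794). The call was lost without the first CD34hi (-0.95, adjusted p = 0.113), the second CD34hi (-0.98, 0.116), the second CD34lo (-1.09, 0.0972) or the third CD34lo library (-1.08, 0.113), without pool 1 (-1.18, 0.063) or pool 2 (-0.86, 0.22), and in DESeq2 (-1.21, 0.0743).

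*Zim1*, a maternally read zinc finger gene next to *Peg3*, showed the same outlying library. It had 4.49, 4.22 and 9.92 CPM in CD34hi and 23.4, 40.8 and 43.9 CPM in CD34lo libraries, a log2 fold change (SE 0.37) of -2.53 (adjusted p = 0.00084). The third CD34hi library was 1.18 log2 units above the mean of the other CD34hi libraries for *Zim1*, and the first CD34lo library was the lowest of its population for both genes. Among the 58 tested imprinted genes, members included, *Peg3* and *Zim1* had the largest excess in that library. Per length, *Zim1* was 0.201 to 0.237 times the level of *Peg3* in CD34hi libraries and 0.516 to 0.553 times in CD34lo libraries, so that the ratio differed little within a population, the third CD34hi library included, and the populations did not overlap. *Usp29* (23 counts) and *Zim3* (0 counts) of the same domain were not tested. *Siah1a*, a partner of the Peg3 protein, was not called (0.021, SE 0.13, adjusted p = 0.921).

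*H19* is a maternally read long noncoding RNA, abundant in the embryo and usually low after birth, that restrains growth. Its gene (14955) lies on chromosome 7, 142575532 to 142578146, on the minus strand. The level was 77.4, 52.7 and 37.3 CPM in CD34hi and 87.8, 81.5 and 95.6 CPM in CD34lo libraries. The CD34lo libraries lay close together and all above the CD34hi libraries, which spread over a wide range. With 55.8 ± 20.2 against 88.3 ± 7.07 CPM (SD, n = 3), the log2 fold change (SE 0.23) was -0.66 (adjusted p = 0.0547), just short of the threshold, and within pools it was -0.18, -0.63 and -1.36. With the replicate block it was -0.72 and passed (adjusted p = 0.0149), and 9 of the 18 alternative analyses called it. Without the first CD34hi library it was -0.94 (adjusted p = 0.0057) and without pool 1 -0.95 (0.014), whereas without the third CD34hi library it was -0.43 (0.0948) and without pool 3 -0.38 (0.198).

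*Igf2*, the paternally read fetal growth factor that shares its enhancers with *H19*, was clearly lower in CD34hi. It had 4.05, 2.73 and 2.67 CPM in CD34hi and 10.4, 14.5 and 9.64 CPM in CD34lo libraries, with no overlap, and a log2 fold change (SE 0.24) of -1.87 (adjusted p = 0.000398). Per length, *Igf2* was 0.032 to 0.0441 times the level of *H19* in CD34hi libraries and 0.0623 to 0.11 times in CD34lo libraries. The noncoding RNA thus outweighed the growth factor in every library, and the gap was wider in CD34hi. *Ins2* (6 counts) and *Nctc1* (1 count) of this domain were not tested.

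**Figure D3:**
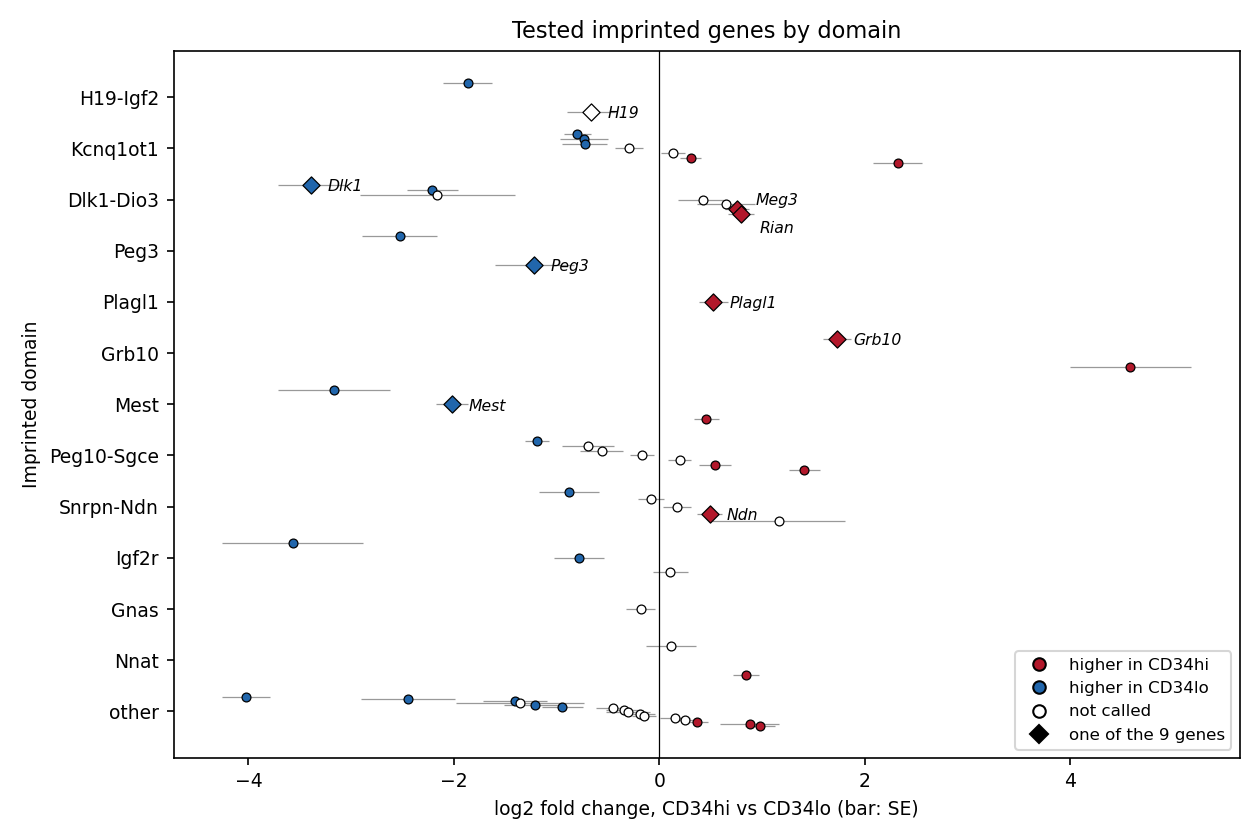
Log2 fold change (CD34hi vs CD34lo, with SE) of the 58 tested imprinted genes, set out by imprinted domain, with the 9 genes as labelled diamonds. Dlk1-Dio3, Mest and Snrpn-Ndn hold genes on both sides of 0, while the tested genes of the H19-Igf2 and Peg3 domains all lie below it.

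Beyond the 9, 68 other imprinted genes were listed, 64 were in the table and 49 passed the filter. Of the 49, 10 were called as higher in CD34hi and 16 as higher in CD34lo, 53.1% together beside 35.6% of all genes. Their median log2 fold change was -0.19. The filter can let a gene pass through 1 population alone, so the share over those that passed is a description. The number higher in CD34hi was 5 without pool 1, 5 without pool 2, 6 without pool 3, 5 without the second CD34hi library and 6 without the third CD34lo library. Among called genes of domains without a member, *Rasgrf1*, a Ras exchange factor, had the widest gap, with 2.23 ± 0.264 CPM in CD34hi and 36.3 ± 9.44 CPM in CD34lo fibroblasts (SD, n = 3) and a log2 fold change of -4.02. *Slc22a3* (-3.57, from 1 to 3 counts per CD34hi library), *Nap1l5* (-2.45), *Herc3* (-1.41), *Sfmbt2* (-1.21) and the retrotransposon-derived *Peg10* (-1.19) were lower in CD34hi too, whereas *Slc22a18* (2.32) and *Ppp1r9a* (1.41) were higher. The *Sfmbt2* call was lost without the first CD34hi (-1.09, adjusted p = 0.0519), the second CD34hi (-1.03, 0.0505) or the third CD34lo library (-1.04, 0.0523) and without pool 2 (-0.94, 0.108), where *Herc3* was lost as well (-1.30, 0.0571).

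**Figure D4:**
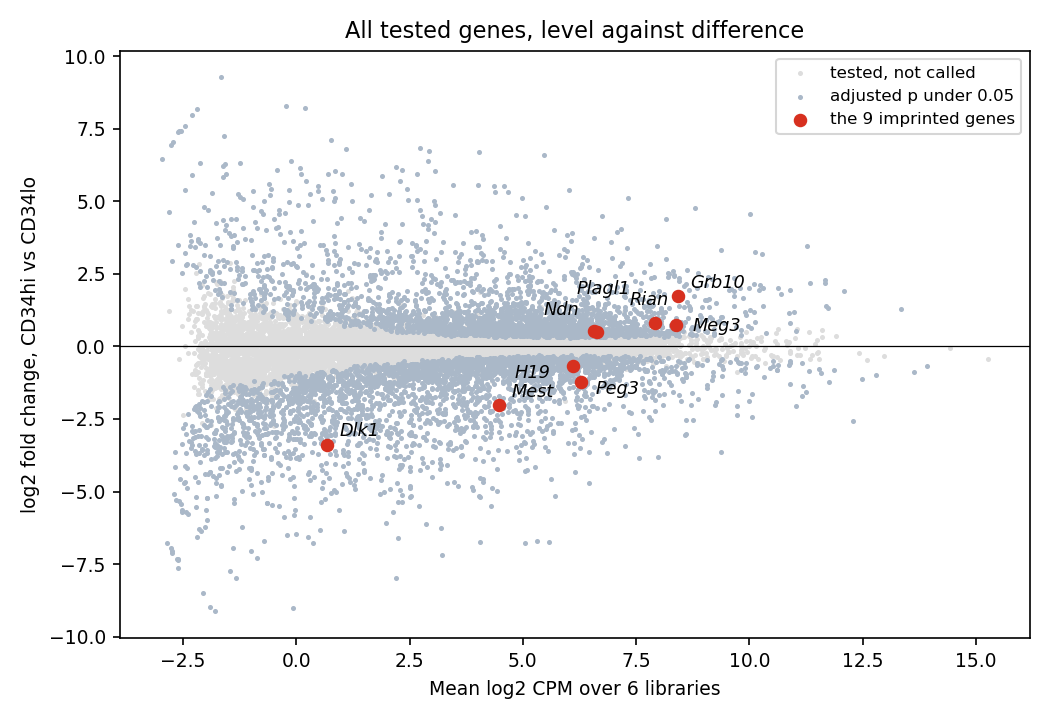
Log2 fold change (CD34hi vs CD34lo) of the 15219 tested genes against their mean log2 CPM over the 6 libraries, with the 9 imprinted genes in red. *Dlk1* lies farthest to the left and farthest from 0 of the 9, and *Grb10*, *Meg3* and *Rian* lie farthest to the right, above 0.

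Imprints are kept by DNA methylation and by proteins that guard it, and 13 of 15 listed genes of this machinery were tested. None was called as higher in CD34hi, beside 16.9% of all tested genes, and 5 (38.5%) were higher in CD34lo, beside 18.7%. The total called was near the 35.6% of all tested genes, while the calls all went one way. *Zfp57*, the zinc finger protein that protects imprinted methylation in the early embryo, was 0.701 ± 0.143 against 6.78 ± 2.16 CPM (SD, n = 3), a log2 fold change (SE 0.31) of -3.27 (adjusted p = 7.6e-05). *Dnmt3a*, a de novo DNA methyltransferase (-0.61, adjusted p = 0.00284), *Setdb1*, a histone methyltransferase (-0.54, 0.00623), *Tet2*, which oxidizes methylated cytosine (-0.44, 0.0164), and *Uhrf1*, which guides maintenance methylation (-1.26, 0.0417), were lower as well. The maintenance enzyme *Dnmt1* had a log2 fold change of 0.22 and was not called (SE 0.12, adjusted p = 0.196). *Uhrf1* lost its call in 9 of 18 alternative analyses. Without the first CD34lo library its log2 fold change was -0.67 (adjusted p = 0.174) and without pool 1 it was -0.82 (0.187). The call was also lost without pool 3 (-1.24, 0.161), without the first (-1.38, 0.0671), the second (-1.21, 0.112) or the third CD34hi library (-1.16, 0.105), without the third CD34lo library (-1.34, 0.0748), in limma-voom (-1.22, 0.0656) and with thinned counts (-1.15, 0.0633). *Tet2* lost it without the second CD34hi (0.0727) or the first CD34lo library (0.065) and without pool 1 (0.125), pool 2 (0.0705) or pool 3 (0.0714). *Dnmt3a* was not called without pool 1 (0.0544) or pool 2 (0.0506), and *Setdb1* not without pool 2 (0.0834).

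The genes whose values ran most like each member's over the 6 libraries were found from log2 CPM centred on each gene's mean, by the root mean square difference. Candidates were limited to tested genes with a symbol, other than members, whose mean log2 CPM was not negative. *Rian* ran most like *Hif1a* (0.0217) and *Rpl21* (0.043), and *Ndn* most like the ribosomal protein genes *Rps20* (0.0297) and *Rps4x* (0.0298). *Meg3* ran most like *Glud1* (0.0458), *Plagl1* like *Tmem60* (0.0602) and *Rmdn1* (0.078), and *Grb10* like *Ltbp1* (0.0692) and *Ebf2* (0.0729). *Mest* ran most like *Nuak1* (0.0715) and *Meox2* (0.0945), and *H19* like *Unc13c* (0.0673) and *Pcbd1* (0.13). The members whose nearest genes were least alike were *Dlk1*, with *Otulinl* (0.163) and *Slc11a1* (0.227), and *Peg3*, with *A530020G20Rik* (0.17) and *Icam5* (0.215). Between members the closest pair was *Meg3* and *Rian* (0.112), although 144 tested genes ran closer to *Meg3* than *Rian* did. With 6 libraries in 2 populations, the population difference is part of any such likeness.

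**Figure D5:**
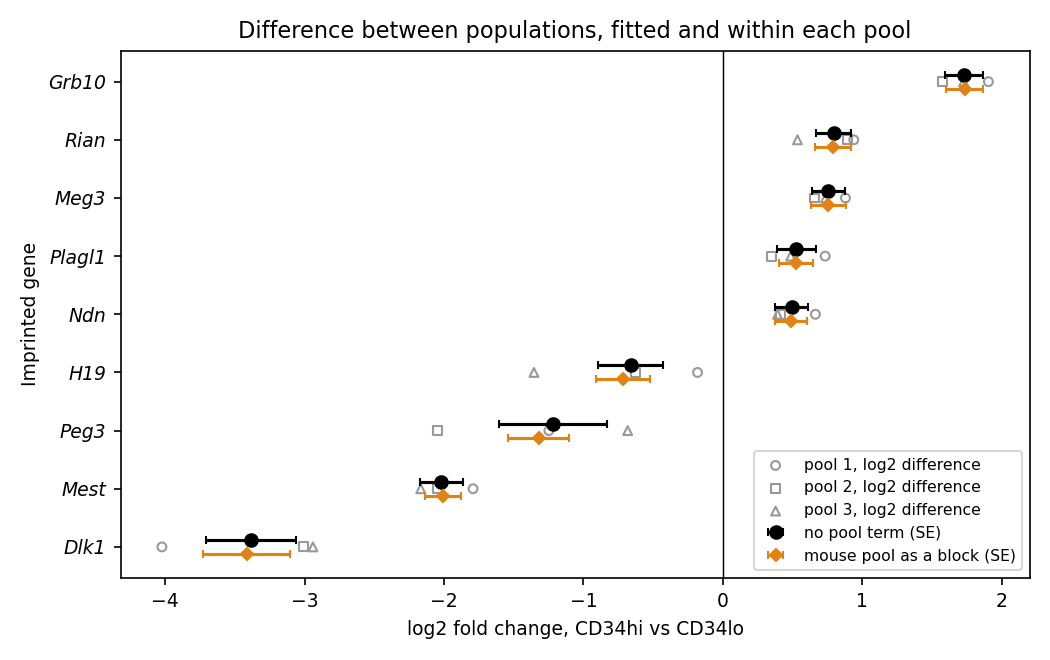
Log2 fold change (CD34hi vs CD34lo, with SE) of the 9 imprinted genes, without a pool term (black) and with a replicate block for the mouse pool (orange), and the log2 difference within each of the 3 pools as open points. Every pool lies on the same side of 0 as the fitted value for each gene, and the pools of *H19* (-0.18 to -1.36) and *Peg3* (-0.68 to -2.05) are the most spread.

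Markers of other cells differed between the populations along with these genes. The summed level in CD34hi and CD34lo libraries was 34.7 to 41.1 and 68.8 to 69.7 CPM for 6 epithelial markers, where *Acta2* (3.24 against 33.3 CPM in the mean) and *Itga6* were higher in CD34lo and *Epcam*, *Krt8*, *Krt18* and *Krt14* were not called, 5.86 to 19.6 and 21.9 to 41.1 CPM for 2 endothelial markers other than *Cd34*, and 1.59 to 2.46 and 7.36 to 11.5 CPM for 2 pericyte markers. For 5 macrophage markers it was 2.57 to 3.2 and 27.3 to 48.6 CPM, in CD34lo mostly *Fcgr2b*, and for 4 muscle markers 1.27 to 1.57 and 3.5 to 3.88 CPM. It was higher in CD34hi for 4 Schwann cell markers, at 42.1 to 52.1 against 20.8 to 26.8 CPM, in CD34hi mostly *Mbp*, and for 2 keratinocyte markers, at 14.3 to 19.9 against 3.6 to 7.12 CPM. Of these lists, the muscle marker *Myog* and the satellite cell markers *Pax7* and *Myod1* were at 0 in all CD34hi libraries, and no marker was at 0 in all 6. Their part in the differences of the imprinted genes was not tested.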

How the data were processed

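Bulk RNA-seq was analysed in 3 CD34hi and 3 CD34lo libraries. The authors prepared TruSeq RNA v2 libraries from polyadenylated RNA, sequenced them on an Illumina NextSeq and aligned and counted the reads per gene with Rsubread 2.2.6, on GRCm38/mm10. The deposited values are raw counts per gene, without normalization. The annotation, the strand setting and the handling of reads shared between genes are not given in the sources used here. Symbols came from a reference gene table by gene identifier, and 1904 genes had none.

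Counts were fitted with edgeR 4.0.16 in R 4.3.3 (filterByExpr by population, TMM, estimateDisp, glmQLFit and glmQLFTest), with Benjamini-Hochberg adjustment over 15219 genes and a threshold of 0.05. The common coefficient of variation between libraries was 19.7%, and 14.9% with the replicate block. The standard error of a fold change was its absolute log2 value over the square root of the F statistic, and a prior count of 2 went into log2 CPM. Code was tested on simulated counts.

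The labels give libraries of both populations the same numbers, and the paper's methods name the pools of mice. Same-numbered libraries were therefore taken to come from one mouse pool, which pairs them. Their deviations from the population means correlated across genes at r = 0.279, 0.0844 and 0.243 in the 3 pools.

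Alternatives were limma-voom (limma 3.58.1), DESeq2 1.42.0, RLE and upper-quartile scaling, no filter, a minimum of 10 counts per library, edgeR and limma-voom each with the replicate block, counts thinned to the smallest library, an adjusted p under 0.01, and each pool or library left out. The lists of imprinted, maintenance, partner and marker genes and the members were chosen with earlier results of these data known. Named genes were all 9 members, the listed genes of their domains, called genes of other domains that changed by 1 or more on the log2 scale, called genes of the maintenance and partner lists, *Insr*, *Igf1r*, *Notch4*, *Siah1a*, *E2f4* and *Dnmt1* as uncalled genes chosen after their values were seen, and the 2 genes nearest in pattern to each member. One result of the last kind is not reported here.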

Additional observations from a re-analysis of the deposited data

How the results depend on the processing

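No direction of the 9 genes was reversed in 162 comparisons with an alternative. In 138 the call was as reported, in 15 (*Peg3*, *Plagl1* and *Ndn*) it was lost, and in 9 (*H19*) it was gained. For the 30 other genes followed, 484 of 534 comparisons kept call and direction, 36 lost the call, 12 gained it and 2 reversed. The reversals were *Ube3a* without pool 3 and without the third CD34lo library, where its log2 fold change over the analyses with libraries left out ran from -0.147 to 0.0864. At an adjusted p under 0.01, 3 of the 9 genes and 5 of the other imprinted genes were higher in CD34hi, and 3444 genes differed in all. With libraries or pools left out, these numbers ran from 3 to 5, from 5 to 8 and from 3468 to 5236. With the replicate block, the pairing left 5 of the 9 genes higher in CD34hi and 4 higher in CD34lo, *H19* included, while 6161 genes differed in all, and of the members it changed no other call than that of *H19*. *H19* had a log2 fold change between -0.95 and -0.38 (adjusted p from 0.0057 to 0.198) and *Peg3* between -1.83 and -0.86 (0.000399 to 0.22), and the cause of these shifts was not tested. *Dio3*, *Ddc*, *Klf14*, *Snhg14*, *Slc22a3* and *Nap1l5* gave no value where at least 10 counts were required in every library. Upper-quartile scaling moved the median of all genes from -0.0064 to -0.059. *Dlk1*, *Dio3*, *Ddc*, *Klf14*, *Slc22a3* and *Nap1l5* had few counts in their lower population, which limits the precision of their fold changes.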
